A study of Mus musculus with 16 samples.

Results

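Mediators by which mesenchymal stromal cells are held to restrain inflammation were followed across concanavalin A hepatitis in the mouse, in whole liver and in the inflammatory cells taken from it. The set holds 10 genes, of 21266 genes with a symbol on the array: Tgfb1, Il10, Il1rn, Lgals1, Ptgs2, Ptges, Nos2, Ido1, Tnfaip6 and Hgf. They were picked by name from the array design, where 1 of them, Ido1, carries its older symbol Indo. They are read by 15 of the 41174 probes and by 51 of the 43379 spots of an array.

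As background, stromal cells release these products when T cell and macrophage cytokines reach them, and they act on neighbouring immune cells. Some are secreted proteins: the cytokines TGF-beta 1 and interleukin 10, the decoy ligand that blocks the interleukin 1 receptor (Il1rn) and the lectin galectin 1 (Lgals1). Others are enzymes that make or destroy small molecules, namely prostaglandin E2 (Ptgs2 and Ptges), nitric oxide (Nos2) and kynurenine from tryptophan (Ido1), beside the hyaluronan-binding protein TSG-6 (Tnfaip6) and hepatocyte growth factor (Hgf). Every one of them is also made by cells of the host, such as macrophages, neutrophils, endothelium and stellate cells.

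The study asked how stem cells from fat alter the response to concanavalin A, a jack bean lectin used to set off T cell hepatitis in mice. All 16 samples came from female C57Bl/6 mice injected with 300 µg of concanavalin A, and treated mice got 100000 cultured cells from inguinal fat of C57Bl/6 mice into the tail vein. The liver groups, with 3 mice each, were stem cells at 0 h with harvest at 2 h (mice 8, 9 and 10), concanavalin A alone with harvest at 2 h (mice 11, 12 and 13), stem cells at 3 h with harvest at 5 h (mice 1, 2 and 3) and concanavalin A alone with harvest at 5 h (mice 4, 5 and 6). The groups of hepatic inflammatory cells, with 2 samples each at 5 h, were stem cells at 3 h (samples 987 and 989) and concanavalin A alone (samples 983 and 985). For samples 983 and 985 the source label names stem cells while the treatment and description labels do not, and they were used as untreated. No mouse without concanavalin A was measured, so a level here is a level within hepatitis. Donor and host were of 1 strain, so RNA of the injected cells and of the host cannot be told apart, nor can fewer cells of a type and less RNA per cell.

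Each sample was read on 1 Agilent array with Cy3, and 52.1% to 62.5% of its spots lay well above background. A value is the log2 of a probe's signal after scaling, with 0 at the 75th percentile of its own array, ± gives the SD after a mean and the standard error after a difference, and each adjusted p is from a limma fit over all genes, with a threshold of 0.05. Levels of different genes are not compared, since each probe has its own brightness. Hepatocyte and lymphocyte markers matched the tissue labels: all 8 measured hepatocyte markers were lower in inflammatory cells than in liver. All 5 B cell markers and 8 of 10 T cell markers were higher in untreated inflammatory cells. Myeloid markers did not set the untreated tissues apart at 5 h. The log2 of the summed signal was 4.77 to 5.27 in cells and 5.13 to 5.64 in liver for macrophages and monocytes. For neutrophils it was 7.34 to 8.08 and 7.20 to 7.70. With stem cells both were higher in the cells, at 6.15 to 6.53 against 5.64 to 6.01 and 9.30 to 9.41 against 7.59 to 7.94. Hepatocyte RNA was still present in inflammatory cells, with Alb (albumin) at 6.59 and 7.92 with stem cells and 5.32 and 7.11 without. Tissue and slide cannot be told apart, because the inflammatory cells had a slide to themselves. The liver groups were spread evenly over 3 slides, but at fixed array positions at 2 h, so position and treatment cannot be told apart there. All 2 h livers were at positions 1 and 2 and all 5 h livers at positions 3 and 4. Position and time therefore cannot be told apart in the liver. Untreated inflammatory cells were at positions 1 and 2 and treated ones at 3 and 4, so position and treatment cannot be told apart in the cells either. Mice 10 and 13 stood apart among the 2 h livers, and results that rest on them are given with and without them.

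Promoters are shown for 3 of the members that moved together between livers, Ptgs2, Tnfaip6 and Il1rn. Each window spans 250 bases before to 50 after an annotated start (RefSeq, GRCm38.p6, plus strand), at chr1:150099781-150100080, chr2:52037863-52038162 and chr2:24336610-24336909. The Il1rn window is the one of its 3 that holds a match. Capitals mark matches, on either strand, to TGANTCA (AP-1), TTGCNNAA (C/EBP), TGACGT (cyclic AMP response element), TTCNNNGAA (STAT) or the kappaB consensus.
Ptgs2: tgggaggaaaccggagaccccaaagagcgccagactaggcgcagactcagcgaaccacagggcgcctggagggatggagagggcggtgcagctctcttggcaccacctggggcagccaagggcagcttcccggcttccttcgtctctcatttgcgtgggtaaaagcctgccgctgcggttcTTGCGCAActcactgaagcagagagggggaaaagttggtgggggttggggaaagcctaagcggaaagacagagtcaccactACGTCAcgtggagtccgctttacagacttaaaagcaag
Tnfaip6: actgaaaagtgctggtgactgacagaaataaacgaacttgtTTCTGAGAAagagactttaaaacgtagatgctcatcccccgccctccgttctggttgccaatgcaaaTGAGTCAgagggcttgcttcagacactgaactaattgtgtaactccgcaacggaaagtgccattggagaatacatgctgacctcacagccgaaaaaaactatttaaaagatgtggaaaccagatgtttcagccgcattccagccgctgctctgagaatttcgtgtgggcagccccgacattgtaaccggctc
Il1rn: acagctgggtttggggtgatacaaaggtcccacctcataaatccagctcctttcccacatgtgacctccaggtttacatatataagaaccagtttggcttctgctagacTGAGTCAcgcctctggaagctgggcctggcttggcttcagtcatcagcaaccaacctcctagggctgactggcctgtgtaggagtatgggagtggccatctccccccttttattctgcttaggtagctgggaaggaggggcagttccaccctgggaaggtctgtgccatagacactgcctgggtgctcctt
The Ptgs2 window holds 1 C/EBP match (bases 182 to 189) and 1 cyclic AMP match (263 to 268). The Tnfaip6 window holds 1 AP-1 (109 to 115) and 1 STAT match (42 to 50), and the Il1rn window holds 1 AP-1 match (110 to 116). Of all 32851 promoter windows, 7.81% hold the AP-1 letters, 10.8% the C/EBP letters, 7.51% the cyclic AMP letters, 8.3% the STAT letters and 8.46% the kappaB consensus. Windows were given for 6 of the 10 members, 9 windows in all. Of these 9, 2 hold the AP-1 letters and 1 each the C/EBP, cyclic AMP, STAT and kappaB letters. Only windows with a match are shown. The windows of Hgf and Ptges hold no match, though Ptges was also low in mice 10 and 13.

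**Figure D1:**
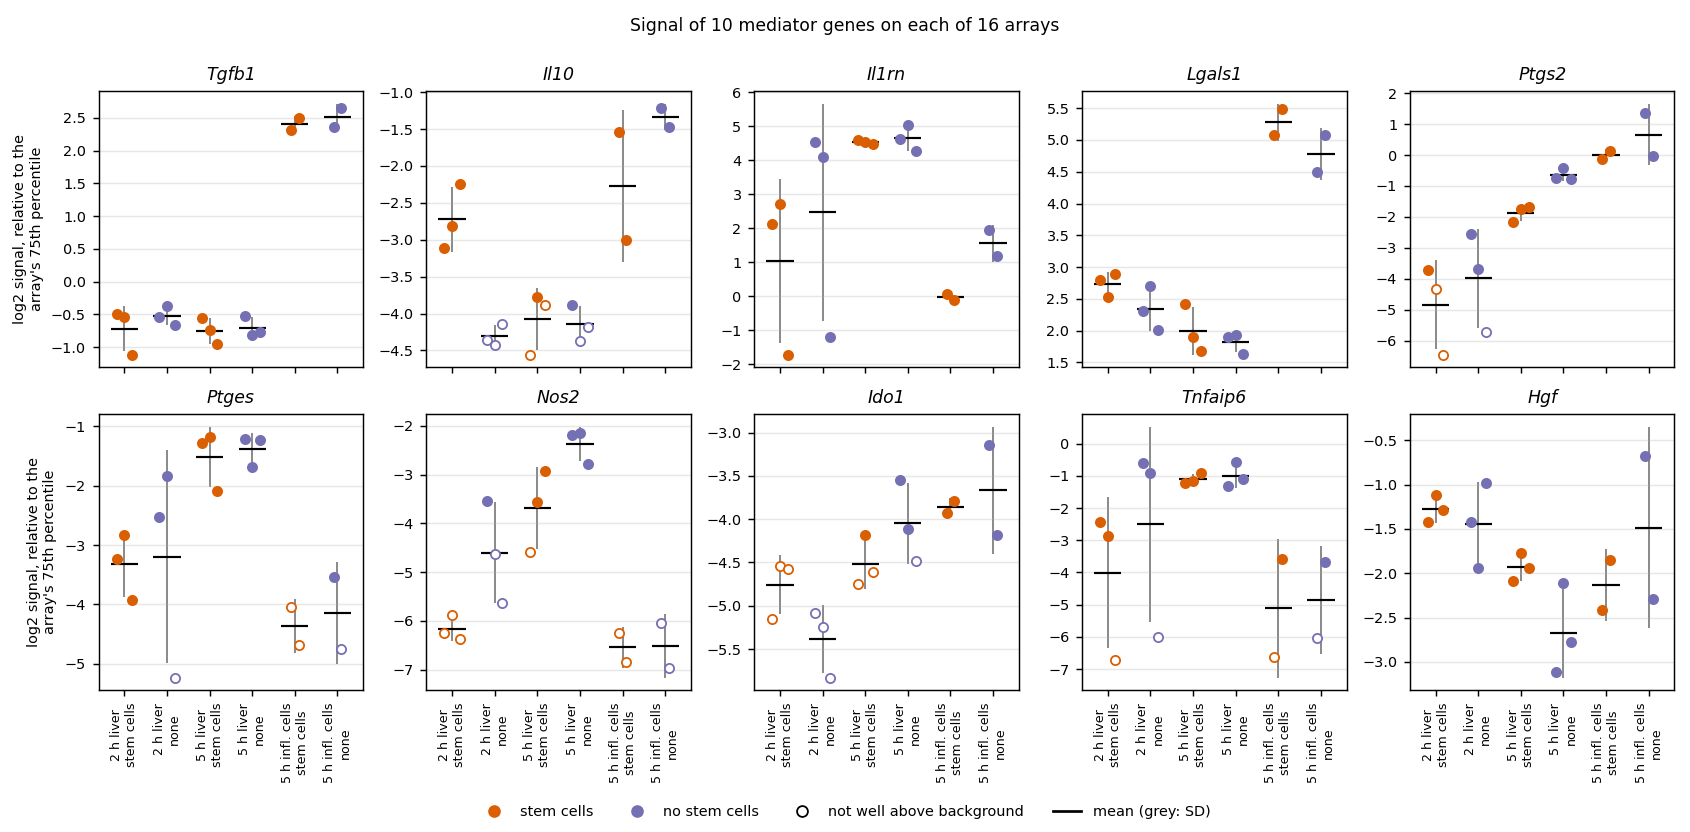
Signal of the 10 mediators on each of the 16 arrays, in log2 with 0 at each array's own 75th percentile, with stem cells left of none in each pair. Points are arrays (open where not well above background), black lines are means and grey lines are SDs. Tgfb1 and Lgals1 were higher in every sample of inflammatory cells than in every liver. Measured values of Ptgs2 and Nos2 were higher in all 6 livers at 5 h than in their own treatment's livers at 2 h. For Nos2, mouse 1 at 5 h was not well above background.

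The first comparison asks whether stem cells given together with concanavalin A changed the mediators in the liver at 2 h. Il10 stood higher with stem cells. Of the 10 members 0 passed the threshold, where 0.0274% of all 14596 genes did. At an unadjusted p under 0.05, 2 members stood out, Il10 and Nos2, where 5.6% of all genes did, but for Nos2 only 1 of the 6 livers was well above background. The median over the members was -0.16, beside 0.08 over all genes.

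Among the secreted proteins, Il10 had -3.12, -2.81 and -2.24 in mice 8, 9 and 10 with stem cells, against -4.35, -4.43 and -4.14 in mice 11, 12 and 13 without. Every treated liver was above every untreated one, and only the treated ones were well above background. The fitted difference was 1.59 ± 0.26 (95% interval 1.00 to 2.17, adjusted p = 0.139 by limma), at least 2.64-fold higher. The same sign appeared within slides 1, 2 and 3, at 1.31, 2.11 and 1.33. The call depended on the libraries: it was adjusted p = 0.0215 without mouse 13, 0.00623 with array weights and 0.753 when these 6 arrays were fitted alone.

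Tgfb1 had -0.49, -0.55 and -1.11 in treated livers and -0.54, -0.38 and -0.65 in untreated ones. The groups overlapped and the difference was -0.19 ± 0.19 (adjusted p = 0.868). Lgals1 had 2.79, 2.53 and 2.89 with stem cells and 2.31, 2.71 and 2.01 without, with overlap through mouse 12, and a difference of 0.40 ± 0.23 (adjusted p = 0.864). Galectin 1 is known to push activated T cells toward death. Il1rn, the brake on interleukin 1, had 2.13, 2.72 and -1.72 in mice 8, 9 and 10 against 4.53, 4.09 and -1.22 in mice 11, 12 and 13. In each group 1 liver lay far below the other two, and the difference of -1.42 ± 1.45 did not pass (adjusted p = 0.870).

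Among the enzymes, Nos2 had -6.24, -5.89 and -6.38 with stem cells and -3.55, -4.63 and -5.63 without. No treated liver and only mouse 11 of the untreated were well above background, so these values have no order below it and no fold is given. The test did not pass (adjusted p = 0.782). Measured values did not overlap for 2 members, Il10 and Nos2, where that held for 8.19% of all genes. Ptgs2, the inducible cyclooxygenase, had -3.73, -4.32 and -6.46 with stem cells and -2.56, -3.69 and -5.72 without, a difference of -0.84 ± 0.79 (adjusted p = 0.868) with wide overlap. Its other probe gave -1.16. Ptges, which completes prostaglandin E2, had -3.23, -2.83 and -3.92 with stem cells and -2.52, -1.85 and -5.23 without, and differed by -0.13 ± 0.71 (adjusted p = 0.974). Mouse 13 was the lowest for Ptges and mouse 10 for Ptgs2. Ido1 had -5.15, -4.54 and -4.58 with stem cells and -5.08, -5.25 and -5.83 without, and no 2 h liver was well above background, so no fold is given.

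Tnfaip6 had -2.42, -2.88 and -6.71 in treated livers and -0.60, -0.91 and -6.00 in untreated ones. Again the third liver of each group was the low one, and the difference was -1.50 ± 1.39 (adjusted p = 0.868). Hgf, a growth factor for hepatocytes, had -1.42, -1.12 and -1.29 with stem cells and -1.42, -1.94 and -0.98 without, with overlap and a difference of 0.17 ± 0.28 (adjusted p = 0.901). All 4 Hgf probes had that sign, between 0.17 and 0.62.

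**Figure D2:**
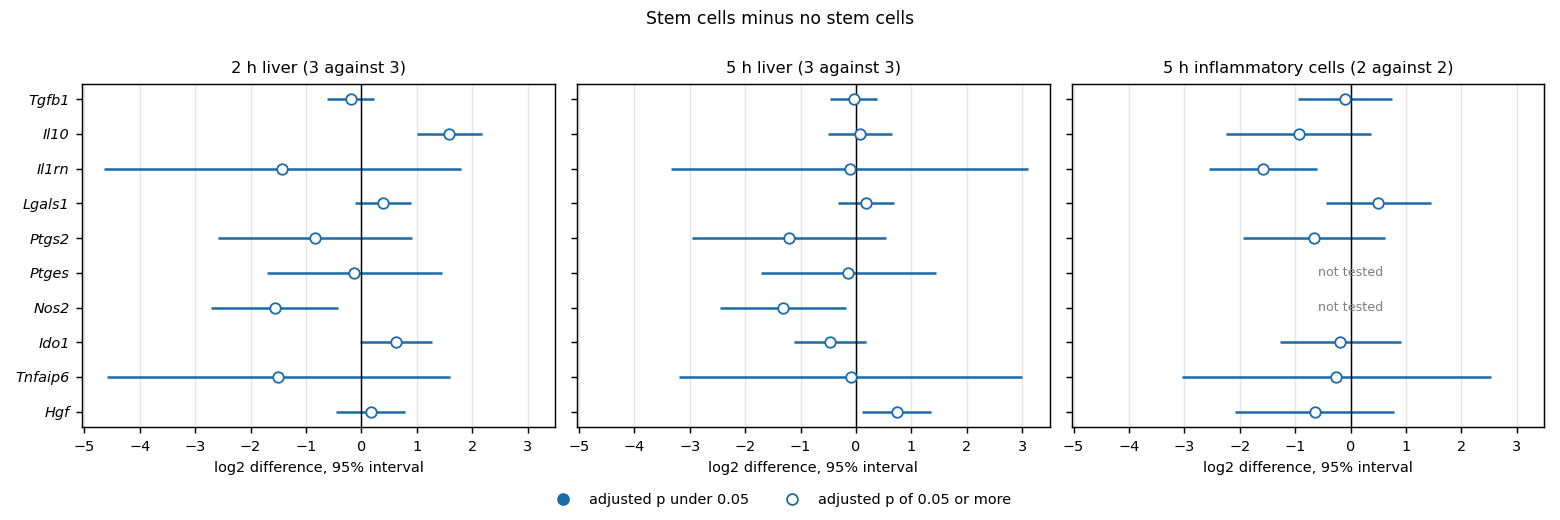
Difference between stem cells and none for the 10 mediators, in log2 with 95% intervals, in 2 h liver, 5 h liver and 5 h inflammatory cells. No member passed the adjusted threshold in any of the 3 panels, so all points are open, and the intervals that leave out 0 are those of Il10 and Nos2 at 2 h, Nos2 and Hgf at 5 h and Il1rn in inflammatory cells.

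Mice 10 and 13, 1 with stem cells and 1 without, shared a pattern. In 5 of the 10 members both lay below the other 4 livers: Il1rn, Tnfaip6, Ptgs2, Ptges and, by little, Tgfb1. Relative to the mean of the other 4, Il1rn was -5.09 in mouse 10 and -4.58 in mouse 13, Tnfaip6 was -5.01 and -4.30, and Ptgs2 was -2.88 and -2.14. For Ptges the values were -1.31 and -2.63. Il10, Hgf and Lgals1 did not share the low values: Il10 was 1.43 in mouse 10 and -0.46 in mouse 13, Hgf was 0.19 and 0.49, and Lgals1 was 0.31 and -0.57.

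Tnf, Il1b and Ifng were low in the same livers, and were chosen after their values were seen. Tnf and Ifng are from the list of cytokines known to induce the mediators, and Il1b is from the interleukin 1 list. The other genes of these lists are not shown for mice 10 and 13. Tnf was -1.82 in mouse 10 and -2.37 in mouse 13, against 0.39 to 1.51 in the other 4 livers. Il1b was 0.97 and -0.43 there, against 3.18 to 3.82. Ifng was 0.39 and -0.50, against 1.79 to 3.34. The neutrophil marker score, a median over 9 genes relative to their means over the livers, was -1.92 in mouse 10 and -2.78 in mouse 13, while the macrophage score of the 2 h livers ran from -0.19 to 0.08 with stem cells and -0.06 to 0.16 without. The share of spots well above background was 57.9% in mouse 10 and 54.2% in mouse 13, within the range of the other arrays. Among the 2 h livers mouse 13 had the lowest share, with mouse 11 next at 56.5%. Mouse 13 also had the most outlier spots of all arrays, 100. The part of these in the result was not tested.

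**Figure D3:**
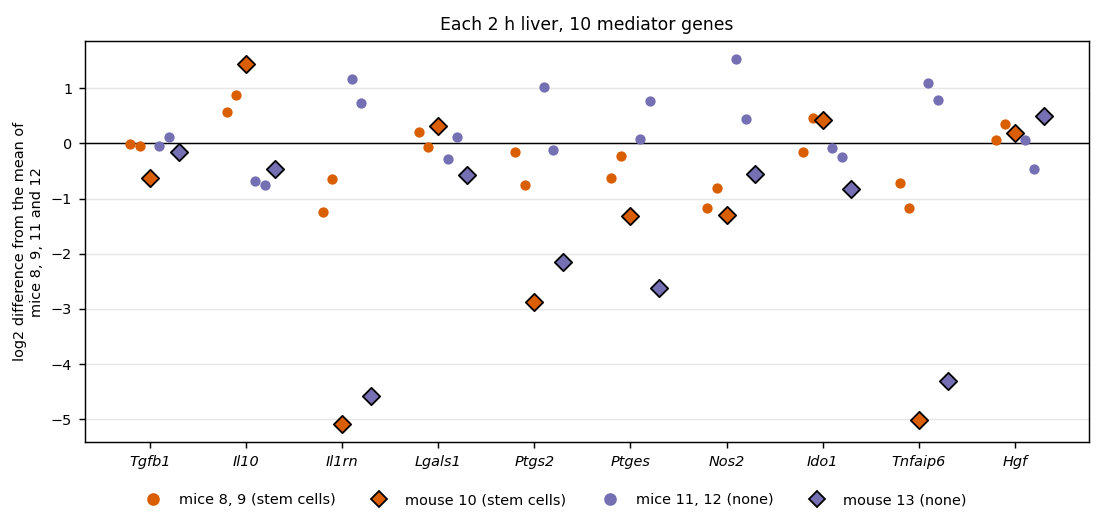
Each of the 6 livers at 2 h, as the log2 difference from the mean of mice 8, 9, 11 and 12, for the 10 mediators. Diamonds are mouse 10 (stem cells) and mouse 13 (none), which lie about 4 to 5 log2 units below 0 for Il1rn and Tnfaip6 and much nearer to 0 for Hgf and Lgals1.

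With mice 10 and 13 left out, which leaves 2 livers a group and rests on a choice made from these data, 3 members passed at 2 h, where 3.1% of all genes did. Tnfaip6 was -1.89 ± 0.27 with stem cells (adjusted p = 0.0103), Il1rn was -1.88 ± 0.28 (adjusted p = 0.012) and Il10 was at least 2.58-fold higher (adjusted p = 0.0301). Without mouse 13 alone, where 3.31% of all genes passed, Il10 was at least 3.04-fold higher (adjusted p = 0.0215). Nos2 was then at least 1.16-fold lower (adjusted p = 0.0463), with mouse 11 alone well above background. Without mouse 10 alone none passed, and Il1rn was -0.04 and Tnfaip6 -0.14. Whether Il1rn and Tnfaip6 were lower with stem cells at 2 h therefore turned on which of these livers entered.

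The second comparison asks the same of stem cells given at 3 h, with the liver taken at 5 h. The enzymes Nos2 and Ptgs2 had lower values with stem cells and Hgf had higher ones, without passing. Of the 10 members 0 passed, where 0.0343% of all genes did, and the groups did not overlap for 3 members, where that held for 22.2% of all genes. At an unadjusted p under 0.05, 2 members stood out, Nos2 and Hgf, where 12.4% of all genes did. The median over the members was -0.11, beside 0.08 over all genes.

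Nos2 had -4.58, -3.55 and -2.93 in mice 1, 2 and 3 with stem cells, against -2.18, -2.15 and -2.78 in mice 4, 5 and 6 without. All treated livers were below all untreated ones, though mouse 3 came close to mouse 6. The difference was -1.31 ± 0.51 (95% interval -2.45 to -0.17, adjusted p = 0.350 by limma). Mouse 1 was not well above background, so the size of that difference depends on signal below background. Over the other settings tried it ran from -1.69 to -0.24. Ptgs2 had -2.16, -1.75 and -1.68 with stem cells and -0.74, -0.42 and -0.78 without, a gap wider than the spread within either group. Its difference was -1.22 ± 0.79 (adjusted p = 0.5415), and -1.16 by the other probe. The error is pooled over all 12 livers, so the scatter of Ptgs2 at 2 h enters it. Hgf had -2.09, -1.77 and -1.94 in treated livers and -3.11, -2.11 and -2.78 in untreated ones. Mouse 5 lay just below the treated range, and the difference was 0.73 ± 0.28 (95% interval 0.11 to 1.36, adjusted p = 0.344). The other Hgf probes gave 0.69, 0.17 and 0.06.

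The remaining members overlapped. Ido1 had -4.75, -4.18 and -4.61 with stem cells and -3.55, -4.11 and -4.48 without, a difference of -0.47 ± 0.29 (adjusted p = 0.522) with 1 treated and 2 untreated livers well above background. Ptges had -1.27, -1.17 and -2.10 with stem cells and -1.22, -1.68 and -1.23 without (-0.14 ± 0.71). Tnfaip6 had -1.21, -1.16 and -0.91 with stem cells and -1.33, -0.56 and -1.10 without (-0.10 ± 1.39). Mice with and without stem cells were thus interleaved for both. Il1rn had 4.58, 4.55 and 4.46 with stem cells and 4.64, 5.04 and 4.26 without (-0.11 ± 1.45), bright in all 6 livers. Il10 had -4.56, -3.77 and -3.89 with stem cells and -3.89, -4.38 and -4.18 without (0.07 ± 0.26), and mouse 2 and mouse 4 alone were well above background. Tgfb1 had -0.56, -0.74 and -0.95 with stem cells and -0.52, -0.82 and -0.77 without (-0.04 ± 0.19). Lgals1 had 2.41, 1.90 and 1.68 with stem cells and 1.90, 1.93 and 1.64 without (0.18 ± 0.23). Adjusted p-values of these 7 lay between 0.522 and 0.985. Markers of neutrophils had higher values with stem cells, with 0 of 9 past the threshold and log2 summed signals of 7.59 to 7.94, against 7.20 to 7.70 without. The part of these cells in the differences was not tested.

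In inflammatory cells at 5 h, 8 of the 10 members could be tested between stem cells at 3 h and none, and Il1rn stood lowest with stem cells. Of these 8 members 0 passed, where 0.0141% of 14202 genes did. The groups did not overlap for 3 members, where that held for 52.5% of all genes, and 1, Il1rn, had an unadjusted p under 0.05, where 18% did. The median over the members was -0.45, beside 0.09 over all genes. The labels do not say whether samples came from separate mice, so these p-values measure only the spread between samples.

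Il1rn had 0.05 and -0.12 in samples 987 and 989 with stem cells, against 1.93 and 1.17 in samples 983 and 985 without. Both treated samples were below both untreated ones, and the difference was -1.59 ± 0.40 (95% interval -2.56 to -0.61, adjusted p = 0.172 by limma). It passed without sample 985 (-1.97, adjusted p = 0.0234), where 15.6% of all genes passed and the untreated arm was sample 983 alone, taken to vary like the treated samples. It also passed after normexp correction (-1.37, adjusted p = 0.0246), where 6.72% of all genes did. Il10 had -1.54 and -3.01 with stem cells and -1.21 and -1.47 without, a difference of -0.94 ± 0.54 (adjusted p = 0.402) that was -0.21 without sample 989 and 0.010 after normexp correction. Galectin 1 (Lgals1) read 5.08 and 5.49 in the treated samples and 4.50 and 5.07 in the untreated ones (0.50 ± 0.39, adjusted p = 0.5205), groups that nearly touch. Tgfb1 read 2.32 and 2.49 in the treated samples, against 2.36 and 2.65 in the untreated (-0.10 ± 0.35, adjusted p = 0.897).

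Ptgs2 had -0.13 and 0.13 with stem cells and 1.37 and -0.04 without (-0.66 ± 0.53, adjusted p = 0.526). Sample 983 was the high one, and without it the difference was 0.041. Hgf had -2.42 and -1.85 with stem cells and -0.68 and -2.29 without (-0.65 ± 0.59, adjusted p = 0.580), again through sample 983, without which it was 0.16. Ido1 had -3.93 and -3.78 with stem cells and -3.15 and -4.19 without (-0.19 ± 0.45, adjusted p = 0.848). Tnfaip6 had -6.64 and -3.58 in samples 987 and 989 with stem cells and -6.04 and -3.67 in samples 983 and 985 without (-0.26 ± 1.15, adjusted p = 0.925). Only samples 989 and 985 were well above background for it, 1 in each group. Nos2 had -6.24 and -6.85 with stem cells and -6.05 and -6.98 without, and Ptges had -4.04 and -4.69 with stem cells and -3.54 and -4.76 without. No sample was well above background for Nos2, and sample 983 alone was for Ptges, so neither was tested.

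Markers of myeloid cells had higher values in the treated samples. For neutrophils 8 of 9 markers were above 0 and 0 passed, with log2 summed signals of 9.30 to 9.41 with stem cells, against 7.34 to 8.08 without, and for macrophages and monocytes 8 of 9 were above 0 and 0 passed, with 6.15 to 6.53 against 4.77 to 5.27. All 8 hepatocyte markers were above 0, with 7.23 to 8.40 against 6.45 to 7.58. The median over all genes was itself 0.09, so a value above 0 was common. The part of these cell types in the values of Il1rn and the other members was not tested.

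Whether the difference made by stem cells changed between settings was tested directly. Between the 5 h and the 2 h liver 0 of 10 members passed, where 0.0137% of all genes did, with Il10 at -1.51 ± 0.37 (adjusted p = 0.758) the farthest from 0. Between inflammatory cells and the 5 h liver 0 of 10 passed, where 2.25% of 16243 genes did, with Il1rn at -1.47 the farthest from 0. Hgf had the lowest adjusted p of the members, at -1.38 ± 0.61 (adjusted p = 0.263 by limma). Without sample 985 that Hgf value was -2.19 (adjusted p = 0.018), where 14.7% of all genes passed and the untreated cells were sample 983 alone.

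The course of the mediators from 2 h to 5 h was next compared, with stem cells and with concanavalin A alone. These comparisons share their 5 h and 2 h livers with those above. With stem cells the schedule differed too. Cells were given at 0 h for the 2 h livers and at 3 h for the 5 h livers. Time and schedule therefore cannot be told apart in the treated livers. In both, Ptgs2 and Nos2 rose. With stem cells 4 of 10 members passed (18.5% of all genes did), 2 up (8.75% of all genes rose) and 2 down (9.78% fell). With concanavalin A alone 4 passed (15.7% of all genes did), 3 up (6.44% of all genes) and 1 down (9.23%). Medians over the members were 1.03 and 1.43, beside -0.08 and -0.07 over all genes. The groups did not overlap for 8 members with stem cells, where that held for 42.7% of all genes, and for 6 without, where it held for 35.9%.

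Ptgs2 averaged -1.86 ± 0.26 at 5 h and -4.84 ± 1.43 at 2 h with stem cells (SD, n = 3), a rise of 2.98 ± 0.79 (adjusted p = 0.027 by limma). Without stem cells it averaged -0.64 ± 0.20 at 5 h and -3.99 ± 1.60 at 2 h, a rise of 3.35 ± 0.79 (adjusted p = 0.0211). All 5 h livers were above all 2 h livers of the same treatment. Nos2 averaged -3.69 ± 0.83 at 5 h with stem cells, against -6.17 ± 0.25 at 2 h, where no liver was well above background, so it was at least 1.53-fold higher (adjusted p = 0.0103). Without stem cells it averaged -2.37 ± 0.36 at 5 h and -4.60 ± 1.04 at 2 h, a rise of 2.23 ± 0.51 (adjusted p = 0.0194), with 1 of 3 livers well above background at 2 h. With each array held at its floor, the lowest signal among probes well above background, a setting added after the data were seen, that Nos2 rise was 1.58 (adjusted p = 0.00789). Ido1 was at least 1.097-fold higher at 5 h without stem cells (adjusted p = 0.0153), with 2 of 3 livers well above background at 5 h and 0 of 3 at 2 h, but it did not pass with arrays held at the floor (adjusted p = 0.499). With stem cells 1 of 3 livers at 5 h and 0 of 3 at 2 h were well above background, so no fold is given.

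Il10, Lgals1 and Hgf went the other way. Il10 fell by 1.35 ± 0.26 from its level at 2 h with stem cells (adjusted p = 0.00789), averaging -4.07 ± 0.42 at 5 h and -2.72 ± 0.44 at 2 h, with only mouse 2 well above background at 5 h. With arrays held at the floor, Il10 fell by 1.01 (adjusted p = 0.021). Without stem cells Il10 was near the background at both times, at -4.15 ± 0.25 and -4.31 ± 0.15. Lgals1 fell by 0.74 ± 0.23 with stem cells (adjusted p = 0.0473), and its value without them was -0.52 ± 0.23 (adjusted p = 0.145). Hgf fell by 1.22 ± 0.28 without stem cells (adjusted p = 0.0195), averaging -2.67 ± 0.51 at 5 h and -1.45 ± 0.48 at 2 h, and was -0.66 ± 0.28 with them (adjusted p = 0.131). The drop in Hgf was 0.84 when its 4 probes were averaged, which did not pass (adjusted p = 0.114). Tgfb1 stayed within 0.2 of its 2 h mean on the log2 scale in both treatments (-0.03 ± 0.19 and -0.18 ± 0.19).

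Ptges, Tnfaip6 and Il1rn had positive values that did not pass, with errors that were smaller without mice 10 and 13. With stem cells Ptges was 1.81 ± 0.71, Tnfaip6 2.91 ± 1.39 and Il1rn 3.49 ± 1.45 (adjusted p = 0.104, 0.175 and 0.1205). Without stem cells they were 1.82 ± 0.71, 1.51 ± 1.39 and 2.18 ± 1.45 (adjusted p = 0.108, 0.488 and 0.331). Mice 10 and 13 were picked from these data, where both lay below the other 4 livers at 2 h for all 3 genes. The passes reached by leaving these mice out are therefore not independent support. Leaving out mice 10 and 13, the treated livers gave 1.51 for Ptges (adjusted p = 0.0123), 1.56 for Tnfaip6 (adjusted p = 0.00318) and 2.11 for Il1rn (adjusted p = 0.000935), all 3 past the threshold with 20% of all genes. In untreated livers the same step gave 0.81, -0.24 and 0.34, none past the threshold, where 13.3% of all genes passed. The size of the time difference for Tnfaip6 and Il1rn in untreated livers therefore rested on mouse 13.

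The calls between times depended on the libraries and on the background. Without stem cells Nos2 lost its call without mouse 13 (1.72, adjusted p = 0.0501) or mouse 4, Ptgs2 without mouse 4 or mouse 6, and Hgf without mouse 13, mouse 4 or mouse 6, with adjusted p between 0.0501 and 0.0723. Calls over all genes fell then too, from 2287 to 1376 without mouse 13, 903 without mouse 4 and 890 without mouse 6. With stem cells Lgals1 lost its call without any 1 of mice 8, 9, 10, 2 and 3 and Ptgs2 without any 1 of mice 10, 1, 2 and 3. Calls over all genes fell from 2704 to between 1308 and 1940 with any 1 of these mice left out. After normexp correction 0 members passed in either treatment, where 813 of 14596 genes passed with stem cells and 286 without. The treated Nos2 value was then -0.15. Of 9 neutrophil markers 3 passed upward with stem cells and 2 without, beside 8.75% and 6.44% of all genes. Their log2 summed signals were 7.59 to 7.94 at 5 h against 5.16 to 6.66 at 2 h with stem cells, and 7.20 to 7.70 against 3.89 to 6.39 without. Mice 10 and 13 had the lowest neutrophil scores of their 2 h groups. The part of neutrophils in the rise of Ptgs2 was not tested.

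**Figure D4:**
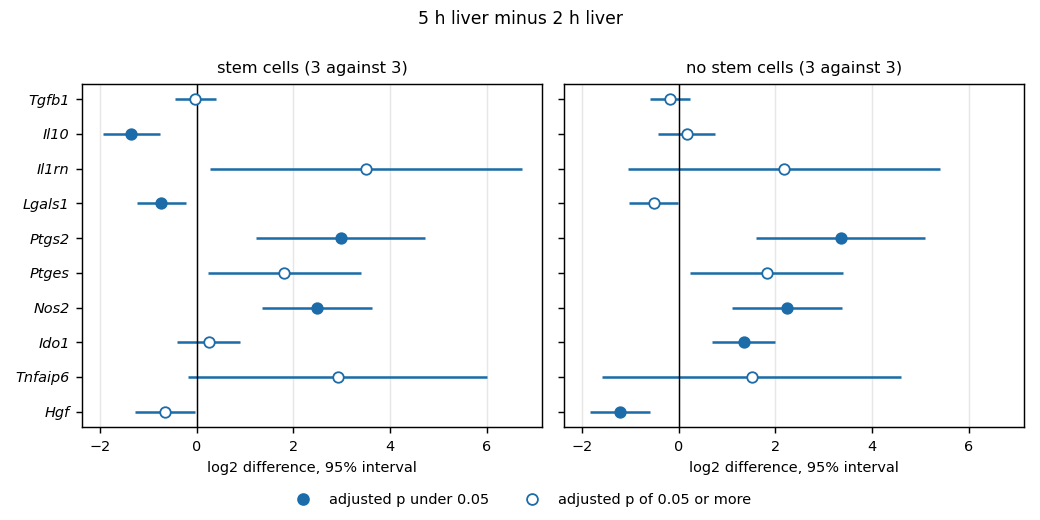
Difference between liver at 5 h and at 2 h for the 10 mediators, in log2 with 95% intervals, with stem cells (left) and with concanavalin A alone (right). In the left panel the schedule of the stem cells differs along with the time. Filled points passed an adjusted p of 0.05: Ptgs2 and Nos2 up in both, Ido1 up and Hgf down without stem cells, Il10 and Lgals1 down with them.

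Inflammatory cells were finally set against whole liver at 5 h, to see in which compartment each mediator was read. Tgfb1, Lgals1 and Il10 were higher in the cells, and Nos2, Ptges and Tnfaip6 were higher in the liver. With stem cells 3 of 10 members passed upward (28.4% of all genes) and 4 downward (35.5%). Without stem cells 4 passed upward (29.3%) and 3 downward (31.7%). Most genes of the array differ between these tissues, so a count near 7 of 10 is close to the 63.8% of all genes called with stem cells and the 61% called without. The groups did not overlap for 9 members with stem cells (77.9% of all genes) and for 8 without (73.8%).

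Tgfb1 averaged 2.41 ± 0.13 in the cells with stem cells, against -0.75 ± 0.20 in the liver, a difference of 3.15 ± 0.22 (adjusted p = 5.5e-08 by limma). Without stem cells the difference was 3.21 ± 0.22 (adjusted p = 4.44e-08). Lgals1 differed by 3.28 ± 0.28 with stem cells (adjusted p = 3.4e-07) and by 2.96 ± 0.28 without (adjusted p = 9.44e-07). Il10 differed by 1.80 ± 0.39 with stem cells (adjusted p = 0.00127) and by 2.81 ± 0.39 without (adjusted p = 3.56e-05). For all 3 the lowest sample of the cells was above the highest liver of the same treatment. Hgf was 1.18 ± 0.43 higher without stem cells (adjusted p = 0.0295), which rested on sample 983 (0.38 without it), and it was -0.20 ± 0.43 with stem cells (adjusted p = 0.704). The 4 Hgf probes shared the positive sign without stem cells (1.06 to 2.52) and disagreed with them (-0.20 to 1.15).

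Nos2, with no sample of the cells well above background, was lower there by at least 1.90-fold with stem cells (adjusted p = 0.000632) and by at least 5.38-fold without (adjusted p = 3.06e-05). In treated mice Ptges was lower by at least 7.20-fold (adjusted p = 0.00564), and in untreated mice it was -2.77 ± 0.77 (adjusted p = 0.00688). The Ptges calls were lost without sample 989 (adjusted p = 0.0502) and without sample 985 (adjusted p = 0.0791). Both enzymes thus had their highest values in whole liver at 5 h. Tnfaip6 was -4.02 ± 1.58 with stem cells (adjusted p = 0.040) and -3.86 ± 1.58 without (adjusted p = 0.0491). In each treatment only 1 of the 2 samples of cells was well above background for Tnfaip6, so both sizes depend on signal below background. Over the other settings tried it ran from -5.54 to -1.06 with stem cells and from -5.05 to -1.74 without. The samples of cells lay far apart within each treatment. Tnfaip6 lost its call when any 1 of the 5 arrays of the untreated comparison was left out, or any 1 but sample 989 of the treated one. Il1rn was -4.57 ± 1.48 with stem cells (adjusted p = 0.0159), a call lost without sample 987 (adjusted p = 0.0619) or sample 989 (adjusted p = 0.0707), and -3.10 ± 1.48 without (adjusted p = 0.0867). Ptgs2 had positive values, 1.86 ± 0.84 and 1.31 ± 0.84 (adjusted p = 0.0699 and 0.199), and Ido1 had 0.66 ± 0.36 and 0.38 ± 0.36 (adjusted p = 0.129 and 0.387). Hepatocyte markers had log2 summed signals of 7.23 to 8.40 in cells and 12.06 to 12.57 in liver with stem cells, and of 6.45 to 7.58 and 11.99 to 12.30 without. The part of this difference in hepatocyte RNA in the members' values was not tested.

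**Figure D5:**
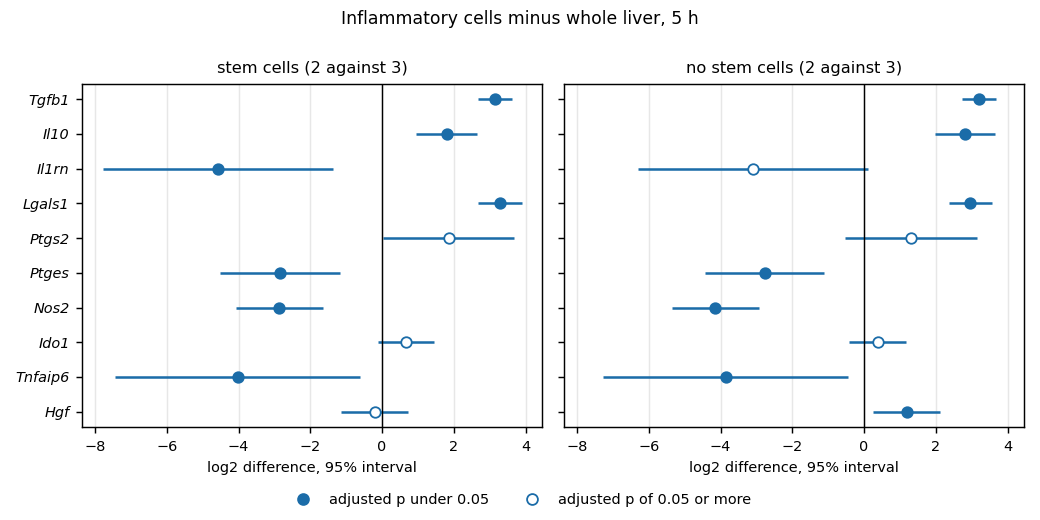
Difference between inflammatory cells and whole liver at 5 h for the 10 mediators, in log2 with 95% intervals, with stem cells (left) and with concanavalin A alone (right). Tgfb1, Lgals1 and Il10 lie to the right of 0 in both panels, and Nos2, Ptges and Tnfaip6 lie to the left.

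The genes that surround the mediators were read from 11 lists of pathway partners. In none of the 3 comparisons of stem cells with none did any partner pass. The nearest were Cyp1a1, a target of the receptor that kynurenine binds, which at 2 h was at least 2.40-fold higher (limma adjusted p = 0.083), and Plau, the protease that can activate HGF, which at 5 h was at least 1.54-fold lower (limma adjusted p = 0.17). In inflammatory cells the nearest was Ifng, an inducer of Ido1 and Nos2, at -2.95 ± 0.37 (adjusted p = 0.091). There 8 of 9 cytokines known to induce the mediators were below 0, with a median of -2.92, beside 0.09 over all genes, and 0 of 9 passed. Ptger2, a prostaglandin E2 receptor, had -2.32 ± 0.35 (adjusted p = 0.12), and Il1r1, the receptor that Il1rn blocks, had -2.84 ± 0.38 (adjusted p = 0.11).

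Between 2 h and 5 h partners passed in both directions. Over all genes 8.75% rose and 9.78% fell with stem cells, and 6.44% rose and 9.23% fell without. The list counts that follow stand beside these shares, and since the lists are short, nothing particular to a list is read from them. In the interleukin 1 family 4 of 13 rose and 0 fell with stem cells, and 3 rose and 1 fell without. Il1r1 rose by 3.61 ± 0.48 with stem cells (adjusted p = 0.0015) and by 3.16 ± 0.48 without (adjusted p = 0.0042), and the alarmin gene Il33 rose by 1.57 ± 0.48 and 1.84 ± 0.48. Sigirr, an inhibitory member of the receptor family, fell by 0.72 ± 0.17 without stem cells (adjusted p = 0.023). In the HGF list 1 of 12 rose and 1 fell in each treatment: Met, the HGF receptor, fell by 0.59 ± 0.14 with stem cells (adjusted p = 0.020) and by 0.73 ± 0.14 without (adjusted p = 0.011), and Mst1r, its relative, rose by 1.87 ± 0.21 and 1.18 ± 0.21.

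In the kynurenine list 1 of 13 rose and 2 fell in each treatment. Wars, a tryptophan tRNA ligase induced by interferon gamma, rose by 1.78 ± 0.21 with stem cells and 2.09 ± 0.21 without (adjusted p = 0.0010 and 0.0014), while Ido2, the paralog of Ido1, fell by 0.79 ± 0.20 and 0.93 ± 0.20. In the nitric oxide list Ddah1, which clears an inhibitor of nitric oxide synthases, fell by 0.62 ± 0.14 with stem cells and by 0.89 ± 0.14 without, and the arginine transporter gene Slc7a1 rose by 1.82 ± 0.52 with stem cells (adjusted p = 0.035). In the TSG-6 and hyaluronan list 3 of 11 rose and 1 fell with stem cells, and 2 rose and 0 fell without. Of the inter-alpha-inhibitor family, Itih4 rose by 1.00 ± 0.21 and Itih3 by 0.87 ± 0.14 with stem cells, and by 0.75 ± 0.21 and 0.61 ± 0.14 without. Itih1 and Itih2, named after their values were seen, did not pass, at 0.02 ± 0.22 and 0.06 ± 0.15 with stem cells and -0.06 ± 0.22 and -0.20 ± 0.15 without. The hyaluronan receptor gene Cd44 rose by 1.51 ± 0.23 with stem cells (adjusted p = 0.0031).

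Among galectins Lgals3 rose by 0.92 ± 0.20 with stem cells and by 1.28 ± 0.20 without, opposite to Lgals1, with 2 of 8 partners up and 0 down in each treatment. In the TGF-beta list Smad3, a signal carrier, fell by 1.38 ± 0.27 with stem cells and 1.34 ± 0.27 without, and 1 of 17 rose and 1 fell with stem cells, against 1 and 3 without. Stat3, the signal carrier of interleukin 10, rose by 1.68 ± 0.35 with stem cells and 1.35 ± 0.35 without. In the prostaglandin list Pla2g4a, which releases the precursor of prostaglandins, rose by 0.91 ± 0.24 with stem cells, and Ptgs1, the constitutive cyclooxygenase, fell by 1.09 ± 0.32 without. Of other stromal mediators 4 of 14 rose and 1 fell in each treatment, with Csf3 up by 1.86 ± 0.52 and the chemokine gene Cxcl12 down by 1.22 ± 0.22 without stem cells. Of 14 mesenchymal and fat stromal markers 0 passed between stem cells and none in the liver at either time, with log2 summed signals of 6.53 to 6.64 against 6.54 to 6.74 at 2 h and of 6.85 to 7.12 against 6.70 to 6.95 at 5 h.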

How the data were processed

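The deposited files give each spot's intensity, not log-transformed. The software was Agilent Feature Extraction 10.5.1.1, per the submitters' processing notes. The background was subtracted and the signal detrended across the array, with no normalization between arrays, per the file headers. The deposited value table holds the same intensities. From these, processed signals were divided by their array's 75th percentile (212 to 426) and taken to log2, with outlier spots (55 to 100 an array) left out and spots of a probe averaged. Background flags in the deposited files (coded by the authors' software as other values, 0 or 1) gave the filter: a probe was kept when well above background on 3 of 12 liver arrays, 2 of 4 arrays of inflammatory cells or 2 of 16 in the fit of both tissues. A gene took its brightest kept probe. Probe names came from the design and a RefSeq table. Groups were compared with limma 3.58.1 in R 4.3.3 (2-sided, Benjamini-Hochberg over all genes tested), 1 fit for livers, 1 for inflammatory cells and 1 for both. The pipeline was tested on simulated data. The number of arrays limits the precision.

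The members and lists were chosen with earlier results of these data known. All 10 members are named throughout. Of a partner list, the 3 genes past the threshold with the largest change per direction could be named, or else the 1 with the smallest p. Other scalings, background correction, filters, probe averages, slide blocks, array weights, fewer arrays and left-out mice were tried, and a floor on dim signals was added after the data were seen. Mouse numbers are not shared between groups, so no paired fit was made.

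Probe positions in the files are on mm8. For the members they are chr7:25413618-25413677 (Tgfb1), chr1:132851912-132851971 (Il10), chr11:78775853-78775912 (Nos2), chr8:26049871-26049930 (Ido1), chr1:151869832-151869891 (Ptgs2), chr2:30714327-30714386 (Ptges), chr5:16130835-16130894 (Hgf), chr2:51878493-51878552 (Tnfaip6), chr2:24172614-24172673 (Il1rn) and chr15:78757391-78757450 (Lgals1), each within a transcript of the gene as the design annotates it.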

Additional observations from a re-analysis of the deposited data

Results flagged for a closer look

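For 2 partner genes the test of the difference between the stem cell value in inflammatory cells and that in the 5 h liver passed. Ptger2, a prostaglandin E2 receptor gene, differed by -1.89 ± 0.35 (adjusted p = 0.020 by limma): its stem cell value was -2.32 ± 0.35 in the cells and -0.43 ± 0.22 in the liver, neither past the threshold. It had -4.56 and -4.58 in the cells with stem cells, of which 1 sample was well above background, against -2.06 and -2.44 without. Il17a, the gene of a T cell cytokine, differed by -3.24 ± 0.69 (adjusted p = 0.031 by limma), but it was well above background in 0 livers at 5 h in either treatment, so that value shows nothing about the liver. In the cells Il17a had -4.68 and -4.06 with stem cells, of which sample 989 alone was well above background, against -2.40 and -0.43 without, and its stem cell value there did not pass (adjusted p = 0.160).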

How the results depend on the processing

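No paired analysis was possible because the labels give no mouse number to more than 1 group. The slide, which holds 1 array of each liver group, was fitted as a block in its place, and left the number of members past the threshold at 0 for stem cells at 2 h and 5 h and at 4 between times in each treatment. A value within 1 standard error of 0 that passed in neither fit was treated as having no direction. Of the member values under other settings, 1723 kept their side of the threshold, and their direction where they had any. Another 31 came past the threshold, 60 fell back and 22 turned their sign. Values within a slide have no p-value and were judged by sign alone. The number of members past the threshold at 2 h was 1 with array weights, 3 without mice 10 and 13 and 0 to 2 with single mice left out. Over all genes, 498 of 14596 passed with array weights, 447 of 14438 without mice 10 and 13 and 0 to 482 with single mice left out. In inflammatory cells it was 1 after normexp and 0 to 1 with single samples left out. Between times without stem cells it was 0 after normexp, 0 with only the groups compared, 2 without mice 10 and 13 and 0 to 5 with single mice left out. Calls over all genes in these settings were 286, 488, 1924 and 890 to 2377, against 2287 as reported. With stem cells the number of members was 0 after normexp, 8 with array weights and 2 to 3 with single mice left out. Calls over all genes there were 813, 4849 and 1308 to 1940 of about 14596, against 2704 as reported. For the difference between inflammatory cells and liver it was 0 to 1. Signs turned as follows, and the cause was not tested. After normexp, the 2 h values were 0.014 for Tgfb1, 0.65 for Nos2, 0.55 for Ptgs2 and -0.010 for Lgals1, the 5 h value of Ido1 was 0.21, Il10 in inflammatory cells was 0.010, Nos2 between times with stem cells was -0.15, and in cells against liver Nos2 was 0.11 with stem cells and Ido1 -0.076 without. With arrays held at the floor, added after the data were seen, Ido1 was -0.12 at 2 h and 0.075 for the difference between times. Within slide 3, the 2 h values were 0.11 for Tgfb1, 1.399 for Ptgs2 and 3.12 for Tnfaip6, and Ido1 at 5 h was 0.29. Between times without stem cells, Tnfaip6 was -0.41 within slide 1 and -0.24 without mice 10 and 13, and -0.24 to 2.46 with single mice left out. Leaving out single samples gave -0.30 to 0.0049 for Tgfb1 at 2 h, -1.37 to 0.041 for Ptgs2 and -1.45 to 0.16 for Hgf in inflammatory cells, and -0.14 to 0.90 for Ido1 in cells against liver without stem cells. Over all genes, the calls ranged from 0 to 498 at 2 h (4 as reported), 0 to 232 at 5 h (5), 0 to 2207 in inflammatory cells (2), 286 to 3450 between times without stem cells (2287) and 813 to 4849 with them (2704), 0 to 74 for the difference between times (2) and 3 to 2369 for that between tissues (365). In liver, Il10, Nos2 and Ido1 lay near background, and their values depend on signal under the floor.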
